A study of Mus musculus with 8 samples.

Results

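The D cyclins, their kinase partners and the inhibitors that act on them were followed through 8 RNA-seq libraries of mouse haemogenic endothelium made from C57BL/6 embryonic stem (ES) cells. The 10 genes were taken by symbol from the count table: the cyclins Ccnd1, Ccnd2 and Ccnd3, the kinases Cdk4 and Cdk6, the INK4 inhibitors Cdkn2a, Cdkn2b, Cdkn2c and Cdkn2d, and the Cip/Kip inhibitor Cdkn1b. All 10 were found among the 41128 genes of the table, and all 10 passed the filter on low counts, which left 14179 genes for testing. The 4 groups held 2 libraries each: Hdac2lox/lox cells with 4oht, Hdac2lox/lox cells with ETOH, Hdac1lox/lox cells with 4oht and Hdac1lox/lox cells with ETOH. The Hdac2lox/lox and Hdac1lox/lox lines carry lox sites at both copies of the gene for histone deacetylase 2 and histone deacetylase 1, enzymes that remove acetyl groups from histones and other proteins. The study's design text names deletion of either gene. The compound 4-hydroxytamoxifen (4oht) activates Cre recombinases fused to an oestrogen receptor domain, and ethanol (ETOH) is its usual solvent. The sources used here give neither the Cre construct nor the time of treatment, nor whether each line is 1 clone.

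D-type cyclins bind CDK4 or CDK6, and the active kinases phosphorylate the retinoblastoma protein RB and its relatives p107 and p130. This loosens their hold on E2F transcription factors, which drive the genes of S-phase entry, cyclin E and cyclin A among them. INK4 proteins (p16, p15, p18 and p19, encoded by Cdkn2a, Cdkn2b, Cdkn2c and Cdkn2d) bind CDK4 and CDK6 and block their union with D cyclins, whereas p27, encoded by Cdkn1b, binds cyclin-CDK complexes and is best known for holding back CDK2. Haemogenic endothelium is the endothelium from which blood cells emerge, a step accompanied by changes in proliferation.

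Total counts were 10215792 to 19552380 per library. Levels are given as CPM, counts relative to the library's total after TMM scaling, and so measure a gene's share of the RNA. Genes were tested by the quasi-likelihood method of edgeR, p-values were adjusted over all 14179 genes by the Benjamini-Hochberg method, and a gene was called at an adjusted p below 0.05. The labels do not say whether replicates were separate cultures, so the spread behind the p-values is that of these samples and may be technical. The endothelial genes Cdh5 and Kdr and the blood progenitor genes Runx1 and Kit, which mark haemogenic endothelium, were present in every library, Cdh5 at 745 to 3026 CPM and Runx1 at 65.8 to 256 CPM. Counts of the targeted genes did not check the labels. Hdac2 averaged 149 ± 0.273 CPM in Hdac2lox/lox 4oht libraries and 158 ± 10.1 CPM in Hdac2lox/lox ETOH libraries (SD, n = 2 each), with a log2 fold change of -0.08 ± 0.14 (SE) and an adjusted p of 0.67. Hdac1 averaged 7.05 ± 0.0922 CPM in Hdac1lox/lox 4oht libraries and 5.69 ± 0.129 CPM in Hdac1lox/lox ETOH libraries (adjusted p = 0.84). Transcripts nearly identical to Hdac1 or Hdac2, whose reads could be confused with theirs, were not searched for, so these levels may be incomplete. The sources used here do not say which exons the lox sites enclose, so the groups are named as labelled.

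With 4oht, 3 of the 10 genes changed in the Hdac2lox/lox line, and all 3 were lower: Ccnd3, Cdk4 and the INK4 gene Cdkn2d. Over all genes tested, 36.1% were called in that comparison, 17.2% lower and 18.9% higher, so the share of members called, 30%, was near the background. No member was called in the Hdac1lox/lox line, where 0% of all genes were called. Replicates lay further apart there, with a median gap in log2 CPM over genes of 0.279 with 4oht and 0.367 with ETOH. The gaps in the Hdac2lox/lox line were 0.187 and 0.191. The lack of calls does not show that 4oht had no effect in the Hdac1lox/lox line. In that line Ccnd1, the D cyclin best known as a target of growth factor signalling, had the third smallest unadjusted p of all genes tested and lay 3.71-fold higher with 4oht, but its adjusted p was 0.71. The D cyclin transcripts differed in make-up in both lines, with a larger Ccnd1 share in every 4oht library than in the ETOH libraries of its line. These shares were not tested.

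**Figure D1:**
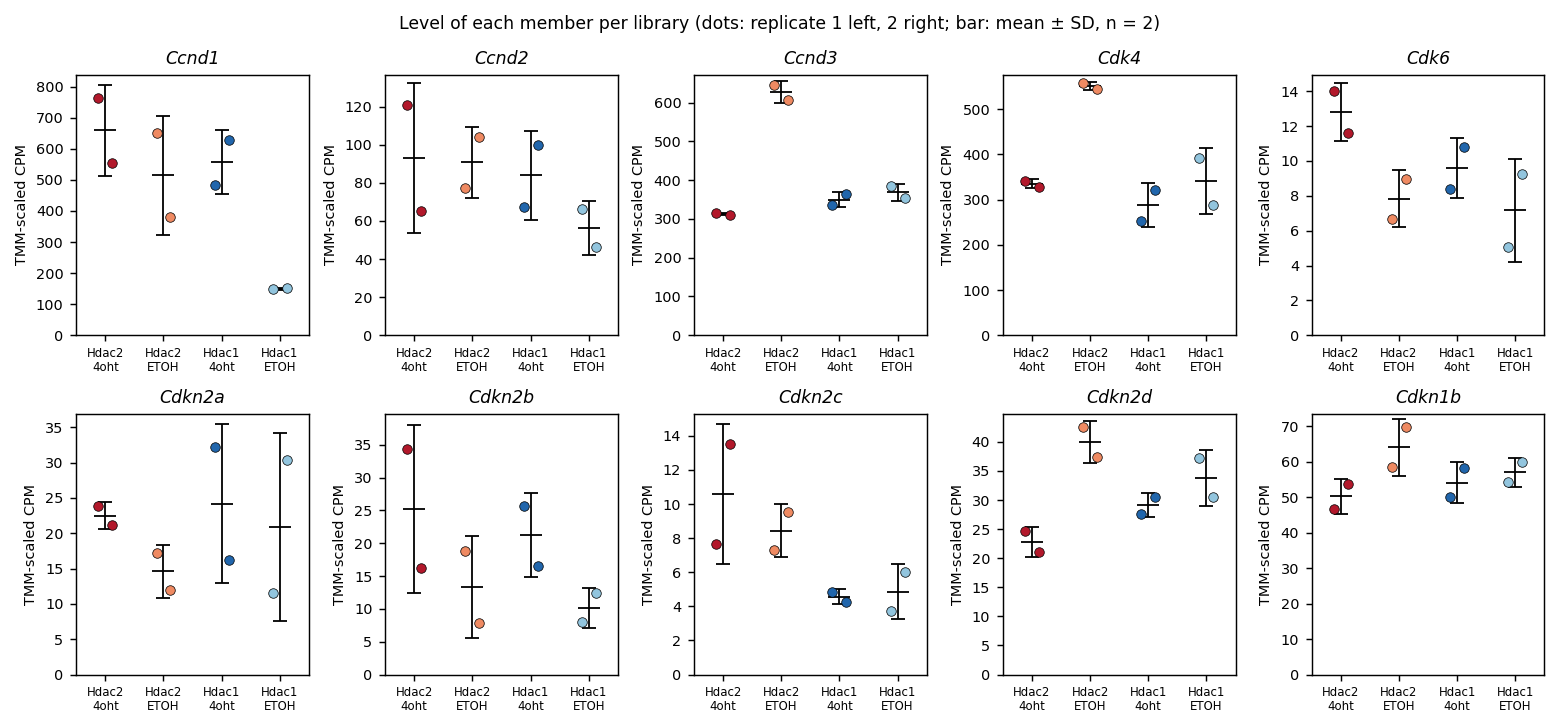
TMM-scaled CPM (vertical axes, linear, from 0) of the 10 members in the Hdac2lox/lox 4oht, Hdac2lox/lox ETOH, Hdac1lox/lox 4oht and Hdac1lox/lox ETOH groups, left to right; dots are libraries and bars the mean ± SD of the 2 libraries. Ccnd3 stands at 310 to 315 CPM in Hdac2lox/lox 4oht libraries against 607 to 647 CPM in Hdac2lox/lox ETOH libraries, and Ccnd1 is lowest in Hdac1lox/lox ETOH libraries, at 148 to 152 CPM.

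Ccnd3, the D cyclin known for its part in lymphoid and erythroid cells of the mouse, had 315 and 310 CPM in Hdac2lox/lox 4oht libraries, against 647 and 607 CPM in Hdac2lox/lox ETOH libraries. The pairs did not overlap, and the gap was far wider than the distance between replicates. Its log2 fold change was -1.0 ± 0.15 (SE, 95% interval -1.35 to -0.66), a fold of 0.499, with an adjusted p of 0.0087. In the Hdac1lox/lox line it had 336 and 364 CPM with 4oht and 385 and 353 CPM with ETOH. Those ranges overlapped, and the log2 fold change was -0.076 ± 0.15 with an interval of -0.42 to 0.27 (adjusted p = 0.96). Ordered by mean level, Hdac2lox/lox ETOH stood highest at 627 ± 28.5 CPM (SD), followed by Hdac1lox/lox ETOH at 369 ± 22.1 CPM, Hdac1lox/lox 4oht at 350 ± 19.8 CPM and Hdac2lox/lox 4oht at 313 ± 3.58 CPM. The Hdac1lox/lox groups overlapped, and Hdac2lox/lox 4oht lay just below them.

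Reads of Ccnd3 (ENSMUSG00000034165, chromosome 17, 47505051 to 47599691, plus strand, build mm10) can be confused with those of Ccnd3-ps, a processed pseudogene on chromosome 4 (139345300 to 139346180). It matches 881 bases of the 2113-base Ccnd3 transcript at 96.254% identity and holds 16.7% of the counts of both together. A stretch of the Ccnd3 coding sequence, bases 61 to 120 counted from its start codon, is shown beside the matching bases 61 to 120 of the pseudogene. With the alignment cut into blocks of this length, it is the first without gaps that holds at least 3 differing letters. It was thus chosen for its differences. Both sequences come from GENCODE M21 transcripts on GRCm38, and capitals mark the letters that differ.
Ccnd3: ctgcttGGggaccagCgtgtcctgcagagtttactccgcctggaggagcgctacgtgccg
Ccnd3-ps: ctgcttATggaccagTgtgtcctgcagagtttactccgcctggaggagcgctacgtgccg
Over 878 aligned columns of the coding sequence, 31 bases differed and 2 were gaps. Ccnd3-ps had 63.8 and 61.3 CPM in Hdac2lox/lox 4oht libraries, against 122 and 119 CPM in Hdac2lox/lox ETOH libraries. It was lower by about as much as Ccnd3, with a log2 fold change of -0.94 ± 0.14 (adjusted p = 0.0086). With its counts added to those of Ccnd3, an alternative chosen after the data were seen, the call on Ccnd3 was kept. The 3' end of Ccnd3 also overlaps Bysl on the opposite strand over 361 bases, and Bysl, which acts in ribosome assembly, was itself lower (log2 fold change -0.75 ± 0.19, adjusted p = 0.022).

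Cdk4, the kinase partner that made up 99.3 to 99.8% of Cdk4 and Cdk6 transcripts per length in each library, had 341 and 328 CPM in Hdac2lox/lox 4oht libraries, against 558 and 545 CPM in Hdac2lox/lox ETOH libraries. The pairs were far apart, and the replicates of each lay close together. The log2 fold change was -0.72 ± 0.20 (interval -1.18 to -0.26), a fold of 0.607, with an adjusted p of 0.029. In the Hdac1lox/lox line Cdk4 had 253 and 322 CPM with 4oht and 392 and 289 CPM with ETOH, which overlap, and a log2 fold change of -0.24 ± 0.20 (adjusted p = 0.86). Cdk4 (chromosome 10, 127063534 to 127067920, plus strand) overlaps Tspan31, a tetraspanin gene on the opposite strand, over 604 bases. Tspan31 had 76.2 and 73.0 CPM in Hdac2lox/lox 4oht libraries and 147 and 134 CPM in Hdac2lox/lox ETOH libraries, and it was lower too (log2 fold change -0.92 ± 0.23, adjusted p = 0.023). The library kit marks strand, but the sources used here do not give the strand setting of the counting, so the split of reads between Cdk4 and Tspan31, and between Ccnd3 and Bysl, is uncertain.

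Cdkn2d, which encodes the INK4 inhibitor p19, had 24.7 and 21.0 CPM in Hdac2lox/lox 4oht libraries, against 42.6 and 37.4 CPM in Hdac2lox/lox ETOH libraries. The pairs did not overlap, and this inhibitor was lower in the same libraries as the cyclin and kinase genes Ccnd3 and Cdk4. Its log2 fold change was -0.81 ± 0.18 (interval -1.23 to -0.39), a fold of 0.570, with an adjusted p of 0.017. With 27.6 and 30.5 CPM in Hdac1lox/lox 4oht libraries and 37.2 and 30.5 CPM in Hdac1lox/lox ETOH libraries, its pairs only touched in that line (log2 fold change -0.22 ± 0.18, adjusted p = 0.87). For all 3 genes the Hdac2lox/lox ETOH group had the highest mean of the 4 groups.

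When any of its 4 libraries was left out, Cdk4 and Cdkn2d missed the threshold (adjusted p of 0.11 to 0.15 for Cdk4 and 0.065 to 0.12 for Cdkn2d), and Ccnd3 passed only without Hdac2lox/lox 4oht replicate 1 and otherwise had an adjusted p of 0.058 to 0.075. Over all 8 such fits, those without an Hdac1lox/lox library included, the log2 fold changes stayed at -1.05 to -0.96 for Ccnd3, -0.75 to -0.69 for Cdk4 and -0.93 to -0.70 for Cdkn2d.

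The libraries compared also differed in markers of other cell types. The summed level of 7 erythroid markers was 223 to 357 CPM in Hdac2lox/lox 4oht libraries and 1630 to 1660 CPM in Hdac2lox/lox ETOH libraries, and 5 of the 7 were called lower. Of the 7 endothelial markers, 5 were called higher (sum 5270 to 6910 CPM in Hdac2lox/lox 4oht and 2300 to 2460 CPM in Hdac2lox/lox ETOH libraries). Of 6 smooth muscle and mesenchyme markers, 4 were called higher (4310 to 6520 CPM against 1510 to 2170 CPM with ETOH). Of 7 blood progenitor markers, 1 was called higher and 2 lower (228 to 251 CPM against 446 to 478 CPM with ETOH). Of 5 macrophage and myeloid markers tested, 3 were called higher and 1 lower (38.2 to 47.3 CPM against 38.7 to 39 CPM with ETOH). Of 3 cardiomyocyte markers tested 1 was higher, and of 2 ES cell markers 1 was lower. Over all genes tested, 18.9% were called higher and 17.2% lower. In the Hdac1lox/lox line, where 0% of all genes were called, no marker was called either. Its smooth muscle and mesenchyme sum was 2440 to 2550 CPM with 4oht, against 1570 to 1820 CPM with ETOH, without overlap. The blood progenitor sum there was 357 to 438 CPM with 4oht, against 534 to 612 CPM with ETOH. Its endothelial sums (3790 to 5230 CPM with 4oht, 3100 to 4700 CPM with ETOH) overlapped, as did its erythroid sums (155 to 426 CPM, 280 to 923 CPM). The part of such shifts in the values of Ccnd3, Cdk4 and Cdkn2d was not tested. In these bulk samples, fewer cells of a type and less RNA per cell cannot be told apart.

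The upstream sequence of the 3 genes that were lower together is shown as the 250 bases before each start annotated by RefSeq, on GRCm38.p6 and on the gene's own strand. Capitals mark matches, on either strand, to the GC box GGGCGG bound by Sp1-family factors, the E-box CACGTG bound by MYC and its relatives, the core TGACGT of cAMP response elements, and the CCAAT box. RefSeq entries were found for 8 of the 10 genes, and there was none for Ccnd1 and Ccnd2. Ccnd3 has entries for a pair of starts, chr17:47504801-47505050 and chr17:47593217-47593466 (plus strand). The Cdk4 window is chr10:127063285-127063534 (plus strand), and the Cdkn2d window is chr9:21291210-21291459 (minus strand).
Ccnd3, upstream start: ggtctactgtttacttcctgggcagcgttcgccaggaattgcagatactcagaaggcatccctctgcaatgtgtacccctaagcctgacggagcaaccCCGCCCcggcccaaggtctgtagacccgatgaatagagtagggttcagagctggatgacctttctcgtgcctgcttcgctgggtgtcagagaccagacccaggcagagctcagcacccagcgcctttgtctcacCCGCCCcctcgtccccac
Ccnd3, downstream start: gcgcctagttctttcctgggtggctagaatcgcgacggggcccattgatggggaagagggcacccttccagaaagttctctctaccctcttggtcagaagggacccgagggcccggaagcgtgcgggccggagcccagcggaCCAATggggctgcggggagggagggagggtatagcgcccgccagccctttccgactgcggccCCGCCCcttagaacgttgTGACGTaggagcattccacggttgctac
Cdk4: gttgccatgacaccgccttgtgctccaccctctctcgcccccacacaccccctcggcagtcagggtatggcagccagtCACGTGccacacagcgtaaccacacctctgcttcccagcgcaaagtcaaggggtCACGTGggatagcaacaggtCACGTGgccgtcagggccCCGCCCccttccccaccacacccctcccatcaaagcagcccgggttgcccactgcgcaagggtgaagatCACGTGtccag
Cdkn2d: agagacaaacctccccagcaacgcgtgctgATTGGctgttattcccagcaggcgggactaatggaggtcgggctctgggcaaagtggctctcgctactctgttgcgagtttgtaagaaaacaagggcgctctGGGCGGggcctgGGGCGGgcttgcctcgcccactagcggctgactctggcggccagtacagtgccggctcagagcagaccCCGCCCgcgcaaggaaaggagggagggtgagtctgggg
The Cdk4 window holds 4 E-boxes, whose first letters lie at -172, -118, -98 and -11 from the start, and 1 GC box at -80. Of 32851 RefSeq windows of the same length, 6.02% hold at least 1 CACGTG, and 7 windows, 0.0213%, hold 4 or more. The cut of 4 equals the number in the Cdk4 window, which is itself among the 7. No such count was made for the other motifs. Cdkn2d holds 3 GC boxes, at -118, -106 and -38, and a CCAAT box at -220, while its window has no CACGTG. Ccnd3 has GC boxes at -152 and -18 before its upstream start. Before its downstream start there are a GC box at -46, a core TGACGT at -28 and a CCAAT box at -108. At least 1 GC box occurs in 32.7% of all windows, TGACGT in 6.47% and CCAAT in 33.8%, on either strand. The E2F motif TTTNGCGC, found in 1.13% of windows, has no match in the 4 shown, and its single match among the 8 genes lies at -244 before a start of Cdkn2a. Besides GC boxes, no motif of those searched was present upstream of Ccnd3, Cdk4 and Cdkn2d alike. GC boxes were not particular to these genes, since they also lay before a start of the uncalled members Cdkn2a, Cdkn2c and Cdkn1b.

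Ccnd1 differed from Ccnd3 in where it stood low. It had 762 and 555 CPM in Hdac2lox/lox 4oht libraries and 651 and 380 CPM in Hdac2lox/lox ETOH libraries. These ranges overlapped, and the log2 fold change was 0.35 ± 0.28 (interval -0.31 to 1.01, adjusted p = 0.34). In the Hdac1lox/lox line it had 484 and 629 CPM with 4oht, against 148 and 152 CPM with ETOH. Both 4oht libraries lay over 3 times as high as either ETOH library. The log2 fold change there was 1.89 ± 0.29 (interval 1.21 to 2.57), with an unadjusted p of 0.00023 that ranked 3 of 14179, and the adjusted p of 0.71 left it uncalled. The call on Ccnd1 depended on the method: the adjusted p was 2e-06 by DESeq2, 3.6e-05 by edgeR's likelihood ratio test and 0.0082 with no filter on low counts, but 0.64 by limma-voom. The quasi-likelihood test left it uncalled with RLE (0.7), upper quartile (0.73) or library size scaling (0.78). It was also uncalled with the line fitted alone and with the replicate block. Leaving out a library of this line gave log2 fold changes of 1.69 to 2.07. Ccnd1 (chromosome 7, 144929931 to 144939869, minus strand) overlaps Oraov1 on the opposite strand over 818 bases, but Oraov1 held only 0.0232 times the counts of Ccnd1. By mean level Hdac2lox/lox 4oht (659 ± 147 CPM), Hdac1lox/lox 4oht (557 ± 103 CPM) and Hdac2lox/lox ETOH (515 ± 192 CPM) overlapped as neighbours, and Hdac1lox/lox ETOH (150 ± 3.02 CPM) stood apart from them.

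Ccnd2, the remaining D cyclin, was the least abundant of the 3 per length and showed no call. It had 121 and 65.1 CPM in Hdac2lox/lox 4oht libraries and 77.5 and 104 CPM in Hdac2lox/lox ETOH libraries, so the 4oht libraries lay on both sides of the ETOH ones (log2 fold change 0.037, interval -0.76 to 0.83, adjusted p = 0.94). Hdac1lox/lox 4oht libraries had 67.4 and 100 CPM and Hdac1lox/lox ETOH libraries 66.3 and 46.3 CPM, with a log2 fold change of 0.58 ± 0.34 (adjusted p = 0.80).

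Set on a scale per kilobase of the longest protein-coding transcript, the D cyclins changed in proportion. Ccnd1 made up 54.8 and 48.6% of the D cyclin sum in Hdac2lox/lox 4oht libraries, against 35.3 and 25.0% in Hdac2lox/lox ETOH libraries. Its share was 43.3 and 47.2% in Hdac1lox/lox 4oht libraries, against 17 and 18.9% in Hdac1lox/lox ETOH libraries. The share was higher with 4oht in each line without overlap, whereas the mean sum of the 3 cyclins was lower with 4oht in the Hdac2lox/lox line and higher in the Hdac1lox/lox line. The mean sum was 338 ± 47.4 CPM per kb in Hdac2lox/lox 4oht and 449 ± 62.2 CPM per kb in Hdac2lox/lox ETOH libraries. In the other line it was 328 ± 40.3 CPM per kb in Hdac1lox/lox 4oht and 224 ± 12 CPM per kb in Hdac1lox/lox ETOH libraries (SD, n = 2 each). The shares and sums were not tested. Dividing by the union of exons instead, chosen after the data were seen, raised the mean Ccnd1 share to 75.2% in Hdac2lox/lox 4oht and 56.4% in Hdac2lox/lox ETOH, and to 70.6% in Hdac1lox/lox 4oht and 40.0% in Hdac1lox/lox ETOH. By that length the sums in the Hdac2lox/lox line no longer stood apart, at 211 and 160 CPM per kb with 4oht and 220 and 161 CPM per kb with ETOH. The Hdac1lox/lox sums were 148 and 186 CPM per kb with 4oht and 82.3 and 77.5 CPM per kb with ETOH. Which D cyclin leads depended on the length used. The 4oht libraries kept the larger Ccnd1 share in both lines, as they did with Ccnd3-ps counts added to Ccnd3. Ccnd2 made up 2.49 to 5.13% of the sum in any library by transcript length.

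**Figure D2:**
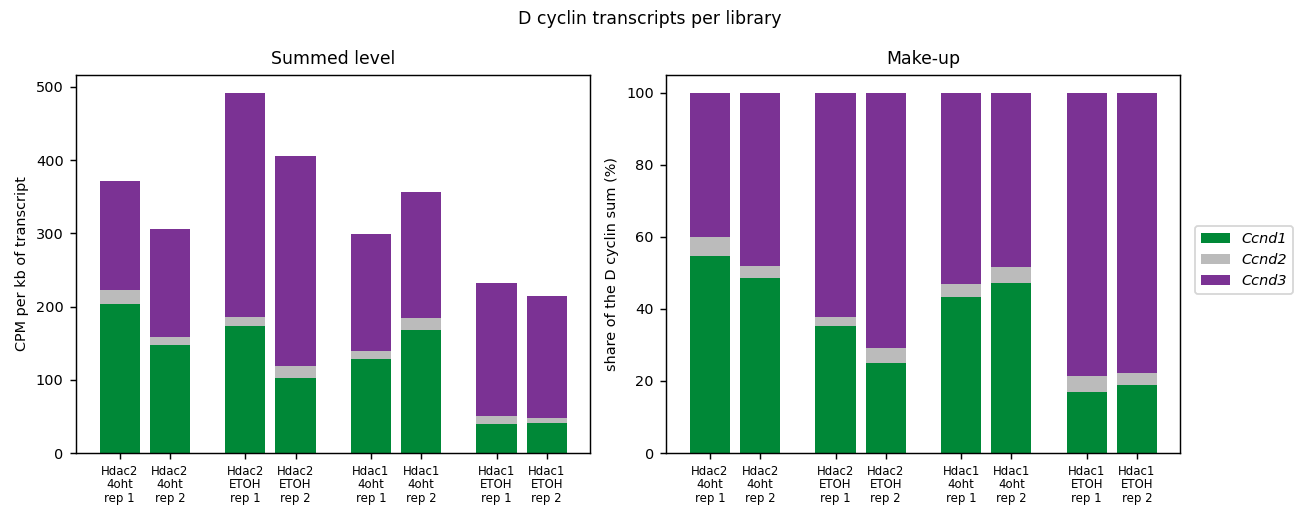
D cyclin transcripts in each library as CPM per kb of transcript (left, linear from 0) and as percent of their sum (right), with Ccnd1, Ccnd2 and Ccnd3 stacked from the bottom; libraries run from Hdac2lox/lox 4oht to Hdac1lox/lox ETOH. The Ccnd1 share is 48.6 to 54.8% in Hdac2lox/lox 4oht against 25.0 to 35.3% in Hdac2lox/lox ETOH, and 43.3 to 47.2% in Hdac1lox/lox 4oht against 17 to 18.9% in Hdac1lox/lox ETOH.

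Cdk6, the second kinase partner and one best known in blood cells, was scarce. It had 14 and 11.6 CPM in Hdac2lox/lox 4oht libraries, against 6.68 and 8.98 CPM in Hdac2lox/lox ETOH libraries. Both 4oht libraries lay above both ETOH libraries, opposite to Cdk4, yet the log2 fold change of 0.72 ± 0.33 (interval -0.052 to 1.49) was not called (adjusted p = 0.12). It was called with the Hdac2lox/lox line fitted alone (adjusted p = 0.035), a fit that called 53.4% of the genes it tested. Hdac1lox/lox libraries had 8.40 and 10.8 CPM with 4oht and 5.08 and 9.25 CPM with ETOH, which overlap (log2 fold change 0.42 ± 0.33, adjusted p = 0.85).

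The other INK4 genes showed no call in either line. Cdkn2a encodes both p16 and, in another reading frame, the p53 activator p19ARF, which the count per gene cannot separate. It had 23.8 and 21.1 CPM in Hdac2lox/lox 4oht libraries and 17.2 and 11.9 CPM in Hdac2lox/lox ETOH libraries, a log2 fold change of 0.62 ± 0.48 (adjusted p = 0.33, or 0.042 with that line fitted alone). Hdac1lox/lox libraries had 32.2 and 16.2 CPM with 4oht and 11.5 and 30.3 CPM with ETOH, a spread between replicates as wide as any difference. Cdkn2b, its neighbour on chromosome 4 and a known target of TGF-β signalling, had 34.3 and 16.3 CPM in Hdac2lox/lox 4oht libraries and 18.8 and 7.83 CPM in Hdac2lox/lox ETOH libraries. In Hdac1lox/lox cells it had 25.7 and 16.6 CPM with 4oht, against 8.08 and 12.4 CPM with ETOH, without overlap. The log2 fold change of Cdkn2b was 0.91 ± 0.50 in the Hdac2lox/lox line (adjusted p = 0.18) and 1.04 ± 0.50 in the Hdac1lox/lox line (adjusted p = 0.76), positive in both and within about 2 standard errors of 0 in both. In the Hdac2lox/lox line the Cdkn2b value was 0.28 or 1.36 when replicate 1 or 2 of the 4oht group was left out, and 1.69 or 0.43 when replicate 1 or 2 of the ETOH group was, with adjusted p-values of 0.097 to 0.73. Cdkn2c, which encodes p18, was the scarcest INK4 gene, at 7.68 and 13.5 CPM in Hdac2lox/lox 4oht libraries and 7.32 and 9.55 CPM in Hdac2lox/lox ETOH libraries (adjusted p = 0.48). Hdac1lox/lox libraries held 4.87 and 4.27 CPM of Cdkn2c with 4oht and 3.71 and 6.00 CPM with ETOH (adjusted p = 0.98). Per length, Cdkn2d made up 24.2 and 26.5% of the INK4 sum in Hdac2lox/lox 4oht libraries, against 45.6 and 53.5% in Hdac2lox/lox ETOH libraries. It was 25.6 and 40.3% in Hdac1lox/lox 4oht libraries and 56.5 and 32.2% in Hdac1lox/lox ETOH libraries, which overlap.

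Cdkn1b, encoding p27, had the narrowest range of the 10 genes over the 8 libraries, relative to its level. It had 46.6 and 53.7 CPM in Hdac2lox/lox 4oht libraries, against 58.5 and 69.8 CPM in Hdac2lox/lox ETOH libraries, with no overlap and a log2 fold change of -0.35 ± 0.17 (interval -0.75 to 0.043, adjusted p = 0.13). In Hdac1lox/lox cells it had 49.9 and 58.1 CPM with 4oht and 54.2 and 59.9 CPM with ETOH, a log2 fold change of -0.078 ± 0.17 (adjusted p = 0.96).

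Without regard to a test, libraries did not overlap for 6 of the 10 genes in the Hdac2lox/lox line, with 4oht higher for Cdk6 and Cdkn2a and lower for Ccnd3, Cdk4, Cdkn2d and Cdkn1b. Over all genes 78.3% did not overlap there, 38.6% with 4oht higher and 39.7% with 4oht lower. In the Hdac1lox/lox line 3 of the 10 did not overlap, Ccnd1, Ccnd2 and Cdkn2b, all higher, against 31.2% of all genes in either direction and 15.8% higher. The median log2 fold change of the 10 genes was 0.18 in the Hdac2lox/lox line and 0.067 in the Hdac1lox/lox line, beside -0.017 and -0.024 over all genes tested. At an unadjusted p below 0.05, 1 of the 10 passed in the Hdac1lox/lox line, Ccnd1, beside 947 genes, 6.68%. With DESeq2 or the likelihood ratio test 1 member was called there, Ccnd1, out of 32 and 35 genes called, and limma-voom called none.

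**Figure D3:**
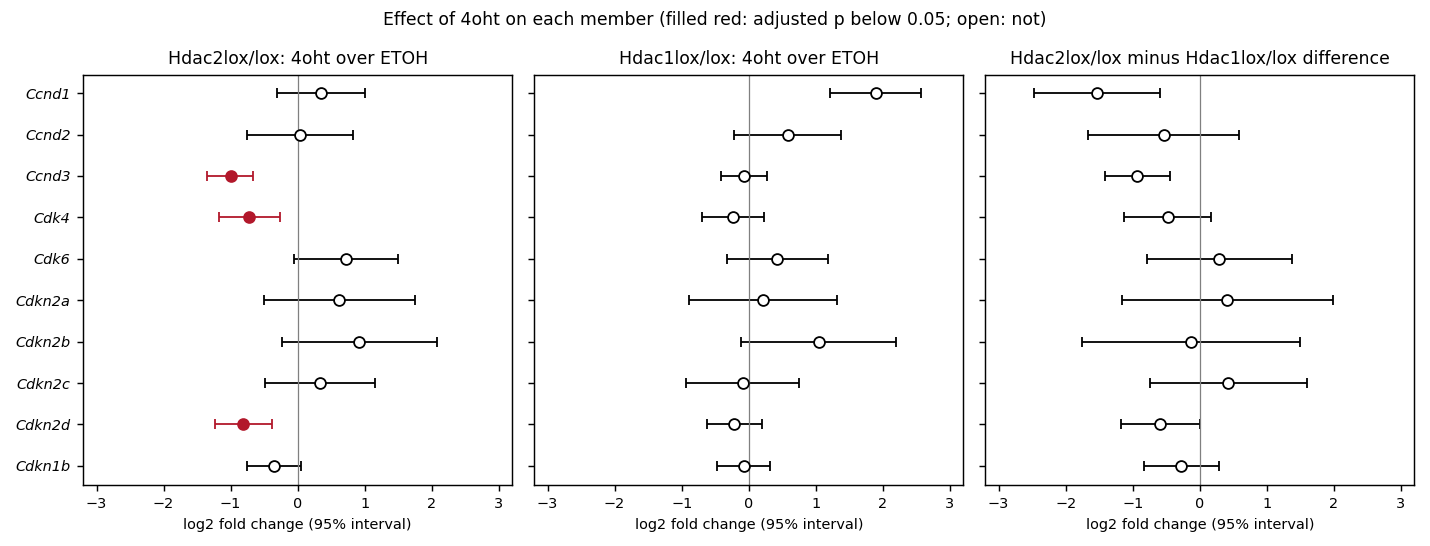
Log2 fold change of 4oht over ETOH with its 95% interval (horizontal axis) for the 10 members in the Hdac2lox/lox line (left) and the Hdac1lox/lox line (middle), and the first minus the second (right); filled red points have an adjusted p below 0.05. Ccnd3 (-1.0), Cdk4 (-0.72) and Cdkn2d (-0.81) are filled in the left panel, and Ccnd1 (1.89) lies farthest from 0 in the middle panel without being filled.

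Whether the lines differed in their 4oht effect was tested directly as the Hdac2lox/lox effect minus the Hdac1lox/lox effect. No member was called, and 4 of 14179 genes were, 0.0282%. The smallest adjusted p-values among the members were those of Ccnd3 and Ccnd1. The difference for Ccnd3 was -0.93 ± 0.21 on the log2 scale (interval -1.41 to -0.45, unadjusted p = 0.0023, adjusted p = 0.079). For Ccnd1 it was -1.54 ± 0.40 (interval -2.48 to -0.60, unadjusted p = 0.0055, adjusted p = 0.088). DESeq2 called both (adjusted p of 0.002 for Ccnd3 and 0.0077 for Ccnd1), as did the likelihood ratio test (0.016 and 0.01), while limma-voom called neither. Leaving out Hdac1lox/lox ETOH replicate 1 also brought both below 0.05 (0.019 for Ccnd3 and 0.044 for Ccnd1), along with 3740 genes in all. At an unadjusted p below 0.05, 3 of the 10 passed, Ccnd3, Ccnd1 and Cdkn2d, beside 28% of all genes. Cdk4 (-0.48 ± 0.28, adjusted p = 0.29) and Cdkn2d (-0.59 ± 0.26, adjusted p = 0.18) were not called, so their effect is not shown to differ between the lines.

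The lines were also set against each other within each agent, in comparisons that share their libraries with those above. Between Hdac2lox/lox ETOH and Hdac1lox/lox ETOH libraries, 9.33% of all genes were called and 2.91% were higher in Hdac2lox/lox ETOH. Of the members 2 were called, both higher in Hdac2lox/lox ETOH. Ccnd1 had a log2 difference of 1.78 ± 0.29 (adjusted p = 0.023), a fold of 3.44, and Ccnd3 one of 0.77 ± 0.15 (adjusted p = 0.029), a fold of 1.70. Cdk4 was 0.69 ± 0.20 higher with an adjusted p of 0.062, and it was called by DESeq2 (0.015), by the likelihood ratio test (0.026) and with no filter (0.043). Libraries did not overlap for 6 of the 10, all higher in Hdac2lox/lox ETOH, beside 29.9% of genes higher and 60.1% in either direction. The erythroid sum was 1630 to 1660 CPM in Hdac2lox/lox ETOH and 280 to 923 CPM in Hdac1lox/lox ETOH libraries. In the same order the endothelial sum was 2300 to 2460 CPM and 3100 to 4700 CPM. The blood progenitor sum was 446 to 478 CPM and 534 to 612 CPM, and the smooth muscle and mesenchyme sums overlapped. The part of such shifts in these differences was not tested. The calls were not kept without either Hdac2lox/lox ETOH library, where the adjusted p of Ccnd1 was 0.067 to 0.19 and that of Ccnd3 was 0.11 to 0.22, nor without Hdac1lox/lox ETOH replicate 2 (0.067 and 0.086) or either Hdac2lox/lox 4oht library (0.05 to 0.051 and 0.071).

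With 4oht in both lines, no member was called between Hdac2lox/lox 4oht and Hdac1lox/lox 4oht libraries, where 8.02% of all genes were. Ccnd1 differed by 0.24 ± 0.28 (interval -0.42 to 0.90, adjusted p = 0.61) and Ccnd3 by -0.16 ± 0.15 (interval -0.50 to 0.18, adjusted p = 0.51) on the log2 scale. For Ccnd3 that interval leaves out a difference as large as its fall with 4oht in Hdac2lox/lox cells. Cdkn2c had the smallest p, with 10.6 ± 4.12 CPM in Hdac2lox/lox 4oht and 4.57 ± 0.422 CPM in Hdac1lox/lox 4oht libraries (SD, n = 2 each). Its log2 difference of 1.21 ± 0.36 had an adjusted p of 0.079, and of 0.03 by DESeq2, 0.023 by the likelihood ratio test and 0.026 with no filter, but 0.097 by limma-voom. It was called without either Hdac1lox/lox ETOH library (0.043 to 0.044), and without Hdac2lox/lox 4oht replicate 2 its log2 difference was 0.75 (adjusted p = 0.41). It was also the 1 member of 10 below an unadjusted p of 0.05, beside 27.6% of all genes. Libraries did not overlap for 5 of the 10, beside 62.3% of all genes. The endothelial sum was 5270 to 6910 CPM in Hdac2lox/lox 4oht and 3790 to 5230 CPM in Hdac1lox/lox 4oht libraries. In the same order the smooth muscle and mesenchyme sum was 4310 to 6520 CPM and 2440 to 2550 CPM. The blood progenitor sum was 228 to 251 CPM and 357 to 438 CPM, and the erythroid sums overlapped. The part of such shifts in these values was not tested.

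The partners and targets of these proteins were followed as a list of 28 G1/S genes, all of which passed the filter. In the Hdac2lox/lox line 3 were called higher and 9 lower with 4oht, that is 10.7% and 32.1%, beside 18.9% and 17.2% of all genes. When any of the 4 Hdac2lox/lox libraries was left out, 0 of the 28 were called, beside 0 to 826 of all genes. The median log2 fold change of the list was -0.29, beside -0.017 over all genes. None was called in the Hdac1lox/lox line by edgeR's quasi-likelihood test, DESeq2, limma-voom or the likelihood ratio test, and 2 had an unadjusted p below 0.05. The median there was -0.14, beside -0.024. Libraries did not overlap there for 12 of the 28, 10 lower and 2 higher with 4oht (42.9%, beside 31.2% of all genes). In the Hdac2lox/lox line they did not for 21, 15 lower and 6 higher (75%, beside 78.3%). The difference between the lines was called for none of the 28 by any of those 4 methods (5 had an unadjusted p below 0.05), so their 4oht effects are not shown to differ between the lines. Without Hdac1lox/lox ETOH replicate 1, however, 1 of the 28 was called higher and 3 lower, among 3740 genes in all.

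The share of the G1/S list called between the lines, 7.14% with either agent, was below that of all genes. Between Hdac2lox/lox ETOH and Hdac1lox/lox ETOH libraries, where 9.33% of all genes were called, 2 of the 28 were. Rbl2, the p130 gene, had 2.66 and 4.39 CPM in Hdac2lox/lox ETOH libraries, against 7.48 and 9.95 CPM in Hdac1lox/lox ETOH libraries (log2 difference -1.32 ± 0.30, adjusted p = 0.04). E2f5 had 43.1 and 43.0 CPM in Hdac2lox/lox ETOH libraries, against 23.8 and 26.2 CPM in Hdac1lox/lox ETOH libraries (0.78 ± 0.16, adjusted p = 0.033). Between Hdac2lox/lox 4oht and Hdac1lox/lox 4oht libraries, where 8.02% of all genes were called, 2 of the 28 were lower. These were E2f4, which encodes an E2F that acts with the RB relatives (-0.75 ± 0.15, adjusted p = 0.033), and Tfdp1, which encodes a dimer partner of E2F factors (-0.65 ± 0.16, adjusted p = 0.046). None of the 28 was called between the ETOH groups without Hdac1lox/lox ETOH replicate 2 or any 1 of the Hdac2lox/lox libraries, while 5 were higher and 4 lower without Hdac1lox/lox ETOH replicate 1. None was called between the 4oht groups without any 1 of the Hdac2lox/lox or Hdac1lox/lox 4oht libraries, while 5 were lower without either Hdac1lox/lox ETOH library.

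Cyclins that act after the D cyclins were among the genes called lower in the Hdac2lox/lox line. Ccne1, one of the cyclin E genes, had 19.5 and 21.1 CPM in Hdac2lox/lox 4oht libraries, against 38.8 and 49.8 CPM in Hdac2lox/lox ETOH libraries (log2 fold change -1.13 ± 0.25, adjusted p = 0.016). Ccne2, the other cyclin E gene, had 30.9 and 28.4 CPM against 45.7 and 58.5 CPM with ETOH (-0.81 ± 0.17, adjusted p = 0.015). The pairs did not overlap for either gene. Ccna2, the S-phase and G2 cyclin A, had 176 and 193 CPM in Hdac2lox/lox 4oht libraries and 321 and 412 CPM in Hdac2lox/lox ETOH libraries (-0.99 ± 0.19, adjusted p = 0.012). Their kinase Cdk2, at 55.7 and 57.7 CPM in Hdac2lox/lox 4oht libraries and 68.8 and 73.6 CPM in Hdac2lox/lox ETOH libraries, was not called (-0.33 ± 0.14, adjusted p = 0.099). Skp2, the ubiquitin ligase subunit that marks p27 for destruction, was lower at -0.78 ± 0.19 (adjusted p = 0.02), and its cofactor Cks1b at -0.94 ± 0.22 (adjusted p = 0.018). The p27 gene itself, Cdkn1b, was not called. In the Hdac1lox/lox line, where 0% of all genes were called, Ccne2 (-0.33 ± 0.17), Ccna2 (-0.39 ± 0.19) and Skp2 (-0.36 ± 0.19) had negative log2 fold changes too. Those of Ccne1 (-0.066 ± 0.24), Cks1b (-0.10 ± 0.22) and Cdk2 (-0.14 ± 0.14) were smaller.

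Of the retinoblastoma family only Rb1 was called in the Hdac2lox/lox line, and E2F genes were called in both directions. Rb1 had 24.1 and 29.4 CPM in Hdac2lox/lox 4oht libraries, against 13.5 and 10.2 CPM in Hdac2lox/lox ETOH libraries, and was called higher (log2 fold change 1.17 ± 0.33, adjusted p = 0.029). Its relatives Rbl1 (p107; -0.26 ± 0.23, adjusted p = 0.39) and Rbl2 (p130; 0.84 ± 0.31, adjusted p = 0.064) were not called. The activating factor E2f2 was lower, at 12.3 and 17.4 CPM in Hdac2lox/lox 4oht libraries against 31.9 and 32.5 CPM with ETOH (-1.12 ± 0.23, adjusted p = 0.014), and so was E2f5, which works with p130 and p107 (-0.74 ± 0.16, adjusted p = 0.016). E2f7, a repressor that needs no RB protein, was higher at 61.5 and 71.4 CPM against 31.2 and 37.1 CPM with ETOH (0.96 ± 0.24, adjusted p = 0.022). E2f1, an activator, was not called and lay within a narrow interval (0.059, interval -0.29 to 0.41, adjusted p = 0.77). The 3 further genes called in this line were E2f8, higher, and Tfdp1 and Ccnh, both lower. In the Hdac1lox/lox line the uncalled log2 fold changes were 0.46 ± 0.32 for Rb1, -0.62 ± 0.23 for E2f2, -0.064 ± 0.16 for E2f5 and 0.072 ± 0.24 for E2f7.

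The Cip/Kip relatives of Cdkn1b were not called in either line. Cdkn1a, which encodes the p53 target p21, had 477 and 282 CPM in Hdac2lox/lox 4oht libraries and 543 and 212 CPM in Hdac2lox/lox ETOH libraries, with the 4oht libraries inside the range of the ETOH ones (adjusted p = 0.99). In the Hdac1lox/lox line it had 353 and 310 CPM with 4oht, against 127 and 182 CPM with ETOH, and did not overlap (log2 fold change 1.10 ± 0.44, adjusted p = 0.73). Cdkn1c, encoding p57, had a log2 fold change of -0.35 ± 0.55 in the Hdac2lox/lox line (adjusted p = 0.63) and -0.26 ± 0.55 in the Hdac1lox/lox line (adjusted p = 0.96).

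**Figure D4:**
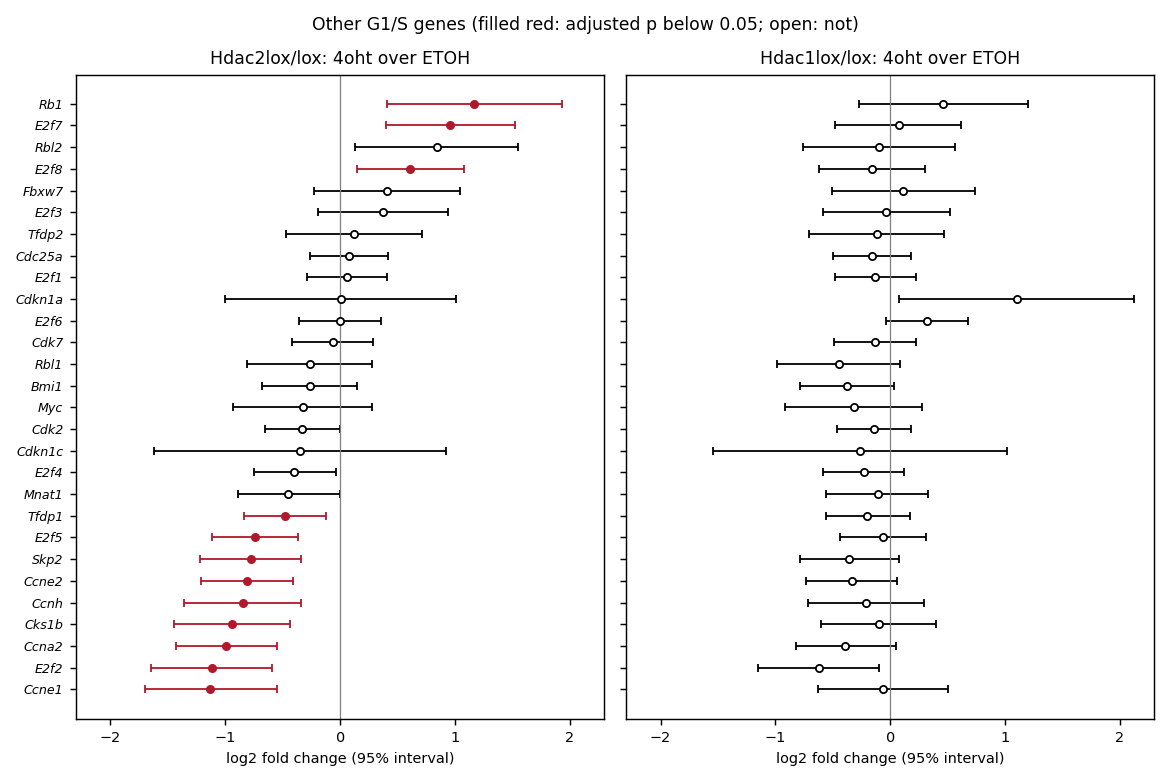
Log2 fold change of 4oht over ETOH with its 95% interval (horizontal axis) for 28 further G1/S genes in the Hdac2lox/lox line (left) and the Hdac1lox/lox line (right), ordered by the left panel; filled red points have an adjusted p below 0.05. In the left panel 3 genes are filled above 0 and 9 below, from Rb1 (1.17) to Ccne1 (-1.13), and no point is filled in the right panel.

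For the members called in a comparison, the genes whose log2 CPM followed theirs most closely over the 8 libraries were looked up among 9910 genes of mean CPM of at least 5. Libraries of a group or line are not independent of each other. The genes were picked for the highest r among these candidates, so the values are descriptions. Ccnd1 was nearest to Plk2, a polo-like kinase gene (Pearson r = 0.980), and Slc37a2 (0.969). Ccnd3 was nearest to Rnmt, which encodes an mRNA cap methyltransferase (0.996), and Gatad1 (0.993). Cdk4 was followed by Slc35b2 (0.992) and Tomm40l (0.991). Mettl18 was among the genes nearest to Cdkn2d (0.988).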

How the data were processed

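Gene counts were analysed in 8 libraries, 2 in each of 4 groups named by the sample titles. Per the labels' protocols, libraries were made from 200 ng of RNA with a strand-specific kit and amplified for 15 cycles. The deposited table holds raw read counts per gene, whole numbers that the authors did not normalize, and its columns carry the samples' own descriptions. Per the submitters' processing notes, the build was mm10 and the tools included Bowtie2 2.2.1, with no role stated. The sources used here name no counting program, annotation or strand setting.

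Genes were filtered with filterByExpr, libraries were scaled by TMM, and a robust quasi-likelihood model with 1 mean per group was fitted to all 8 libraries in edgeR 4.0.16 (R 4.3.3), which pools the spread over groups. Comparisons were of 4oht with ETOH in each line, of the difference of these effects, and of the lines within each agent. Standard errors come from the F statistic, and 95% intervals from the t distribution on the model's degrees of freedom. Benjamini-Hochberg adjustment was at 0.05 within each comparison. Depth was 10215792 to 19552380 counts per library, at which 3 counts correspond to 0.15 to 0.287 CPM, and each member had at least 62 counts in every library. No use of molecular identifiers is stated, so PCR copies of a molecule may have been counted separately. Levels per length divide CPM by the longest protein-coding GENCODE M21 transcript. Copies, searched for the members only, are transcripts found by BLAST 2.17.0 with at least 95% identity over at least 200 bases. The method was also run on simulated counts drawn independently for each library, and no value given here comes from that run. The replicate numbers were not taken to pair libraries, since the labels do not say what they share. Replicates of every group differed by more than counting error. The chi-square per gene was 15.5 in Hdac2lox/lox 4oht, 12.1 in Hdac2lox/lox ETOH, 43.7 in Hdac1lox/lox 4oht and 99.0 in Hdac1lox/lox ETOH libraries.

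The members, the G1/S list and the marker lists were chosen with earlier results of these data known. Genes named are the members, Hdac1 and Hdac2, up to 8 genes of the G1/S list with the smallest adjusted p over the 3 tests of 4oht effects plus its Rb, cyclin E, Cdk2, Cip/Kip and E2f1 genes, the 2 genes most correlated with each called member (1 of them is not reported here), and overlapping genes or copies. Bysl, Tspan31 and Oraov1 fall under the last. E2f4, E2f8, Tfdp1 and Ccnh were named after their values were seen. Alternatives were other scalings, no filter, DESeq2 1.42.0, limma-voom (limma 3.58.1), edgeR's likelihood ratio test, each line alone, a replicate block and leaving out each library.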

Additional observations from a re-analysis of the deposited data

How the results depend on the processing

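With 2 libraries per group, calls depended on the method more than fold changes did. In the Hdac2lox/lox line the same 3 members, Ccnd3, Cdk4 and Cdkn2d, were called with RLE, upper quartile or library size scaling, no filter, DESeq2, limma-voom and the likelihood ratio test, and 5 with the line fitted alone, when 53.4% of all genes tested were called. Upper quartile scaling moved the median log2 fold change of all genes there to -0.15, and library size alone to -0.14. The first moved that of the difference of effects to -0.14, the second that between the 4oht groups to -0.12. Ccnd2 changed sign in that line at -0.097 with upper quartile scaling, -0.084 with library size only, -0.012 with limma-voom and -0.015 with the replicate block. Cdkn2a between the 4oht groups was 0.0063 with limma-voom and 0.14 with the block. Without a library, the spread of its group's remaining library was taken from the other groups, the Hdac1lox/lox ones included, whose replicates lay further apart.

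The log2 difference between replicates 1 and 2 of each gene was correlated between the 4oht and ETOH groups of a line. The correlation was 0.31 in the Hdac2lox/lox line and -0.73 in the Hdac1lox/lox line. In the Hdac1lox/lox line, 4oht replicate 1 thus tended to depart from its group as ETOH replicate 2 did, and the reverse. A fit without a block counts such shared departures as spread, and what those libraries share is not stated. The replicate block within each line called 0 genes and 0 members in all 5 comparisons (5235 and 555 genes had an unadjusted p below 0.05 in the Hdac2lox/lox and Hdac1lox/lox lines), with adjusted p-values of 0.071 for Ccnd3, 0.12 for Cdk4 and 0.079 for Cdkn2d in the Hdac2lox/lox line. With the Hdac1lox/lox pairing crossed, a block chosen after the data were seen, 8574 genes and 7 members were called in the Hdac2lox/lox line, 858 and 2 in the Hdac1lox/lox line, 5852 and 4 for the difference of effects, 7175 and 7 between the ETOH groups, and 3412 and 2 between the 4oht groups.

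Genes called for 4oht in the Hdac1lox/lox line numbered 4 with no filter, 32 with DESeq2 and 35 with the likelihood ratio test, with 1 member each time, Ccnd1. For the difference of effects they numbered 11 with library size only, 1187 with no filter (1 member), 1781 with DESeq2 (2 members), 1927 with the likelihood ratio test (2 members) and 1 with limma-voom. With the quasi-likelihood fit and TMM scaling, 50% of the 4 genes called were higher. The higher share was 72.7% with library size only, 65% with no filter, 69% with DESeq2 and 66.9% with the likelihood ratio test. The 1 gene called with limma-voom was higher. Between the ETOH groups 2064, 2801 and 2937 genes were called with no filter, DESeq2 and the likelihood ratio test, and between the 4oht groups 1805, 2023 and 2253, with 1 member, Cdkn2c, each time. With library size only the higher share of calls was 20.2% in place of 31.1% between the ETOH groups, and 34.6% in place of 46.8% between the 4oht groups. The cause of these differences was not tested.

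Leaving out 1 library gave 0 to 6422 genes and 0 to 3 members called in the Hdac2lox/lox line (826 and 91 without 4oht replicate 1 or 2, 116 and 0 without ETOH replicate 1 or 2), 0 to 3740 genes and 0 to 2 members for the difference of effects, 1 to 3871 genes and 0 to 3 members between the ETOH groups, and 0 to 2276 genes and 0 to 1 members between the 4oht groups. Uncalled members that changed sign had these ranges of log2 values. In the Hdac2lox/lox line they were -0.47 to 0.42 for Ccnd2 and -0.13 to 0.69 for Cdkn2c. In the Hdac1lox/lox line they were -0.19 to 0.027 for Cdkn1b, -0.37 to 1.06 for Cdkn2a and -0.40 to 0.29 for Cdkn2c. For the difference of effects they were -0.76 to 0.65 for Cdkn2b, -0.038 to 0.78 for Cdkn2c, -0.45 to 0.98 for Cdkn2a and -0.21 to 0.66 for Cdk6. Between the ETOH groups they were -0.39 to 0.87 for Cdkn2b, -0.25 to 0.61 for Cdk6 and -1.05 to 0.35 for Cdkn2a. Between the 4oht groups they were -0.0065 to 0.45 for Ccnd1, -0.37 to 0.52 for Ccnd2, -0.38 to 0.70 for Cdkn2b, -0.52 to 0.47 for Cdkn2a and -0.22 to 0.0034 for Cdkn1b.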
